A study of Mus musculus with 8 samples.

Results

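The 32 genes described here encode the glycolytic enzymes, glucose and lactate transporters, regulatory kinases, acid-handling enzymes and oxygen sensors that are usually read together as glycolysis and hypoxia genes. They were taken as a list by function, and all 32 are among the 24421 genes with values in the deposited files. The cells were MCa-P1362, a line grown from a mouse mammary adenocarcinoma, sorted by flow cytometry into a fraction with and a fraction without EpCAM, an adhesion protein of epithelial cells. There were 4 groups of 2 libraries each: coculture EpCAM+, coculture EpCAM-, monoculture EpCAM+ and monoculture EpCAM-. Per the labels' protocols, sorted cells were frozen at once or grown on by themselves and passaged 1 time. The labels do not tie these steps to the words coculture and monoculture. All groups were grown in the same high-glucose medium with bovine serum, and the labels name no low-oxygen treatment, genotype or drug. The groups are samples of 1 line in culture, so they carry no vessel or blood supply. Nothing in the labels ties the 2 libraries of a group to separate cultures, so p-values here reflect only how far such a pair differed, which may be a technical spread.

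Glycolysis splits glucose into pyruvate, and cells that turn pyruvate into lactate export it with a proton through monocarboxylate transporters. When oxygen is short, prolyl hydroxylases stop marking hypoxia-inducible factor (HIF) for destruction, and HIF raises many of the genes of this list, among them glucose transporters, hexokinase, lactate dehydrogenase A, the lactate exporter MCT4 and carbonic anhydrases. Several steps have isozymes with separate genes, so cells can run the same pathway with different members of a family. HIF binds DNA at the hypoxia response element, whose core reads ACGTG or GCGTG.

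Promoter sequence was matched for 30 of the 32 genes in a RefSeq table of mouse build GRCm38.p6 and was not used for Slc2a3 and Ndrg1. The 250 bases before the start of transcription, as RefSeq places it, held ACGTG or GCGTG, on either strand, in 26 of the 30 genes (86.7%), counting a gene once if any of its promoters did. The same share over all 27025 genes of the table was 41.5%. At least 2 places were found in 17 of the 30 genes (56.7%), against 15.5% of all genes. The promoters of the list were also richer in CG steps, with a median of 14 in 250 bases against 6 in all promoters, and both motif cores hold a CG. The palindrome CACGTG, the E-box of MYC and other factors, holds ACGTG on both strands and was counted as 1 place. Gpi1, Tpi1, Eno2 and Car12 had none of these letters in the window. The 6 promoters below belong to genes on which the comparisons turn, with every match in capitals (ACGTG or GCGTG, or CACGT or CACGC where the match lies on the other strand). Hk2, which encodes hexokinase 2, has its window at chr6:82774455-82774704 on the minus strand. Slc16a3, which encodes the lactate exporter MCT4, has its window at chr11:120948817-120949066 on the plus strand. Ldhb, the heart-type lactate dehydrogenase subunit, is read from chr6:142507958-142508207 on the minus strand. Egln3, a prolyl hydroxylase, is read from chr12:54203875-54204124 on the minus strand. Bnip3, a mitophagy receptor, is read from chr7:138909507-138909756 on the minus strand. Car12, a carbonic anhydrase of the cell surface, is read from chr9:66713436-66713685 on the plus strand.
Hk2: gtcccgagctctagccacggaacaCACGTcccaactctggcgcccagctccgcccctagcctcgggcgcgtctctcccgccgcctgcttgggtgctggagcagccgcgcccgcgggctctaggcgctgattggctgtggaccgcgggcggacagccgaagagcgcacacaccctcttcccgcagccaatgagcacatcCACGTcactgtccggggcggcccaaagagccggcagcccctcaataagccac
Slc16a3: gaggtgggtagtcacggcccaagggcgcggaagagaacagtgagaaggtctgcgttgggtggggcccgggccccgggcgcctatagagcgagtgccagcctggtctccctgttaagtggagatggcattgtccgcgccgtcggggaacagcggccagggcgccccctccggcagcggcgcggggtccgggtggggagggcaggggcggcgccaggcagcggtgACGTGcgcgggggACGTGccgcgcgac
Ldhb: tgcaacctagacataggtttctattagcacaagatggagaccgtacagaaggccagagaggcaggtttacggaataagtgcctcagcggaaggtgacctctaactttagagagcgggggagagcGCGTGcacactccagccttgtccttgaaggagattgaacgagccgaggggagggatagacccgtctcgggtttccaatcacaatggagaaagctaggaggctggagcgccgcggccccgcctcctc
Egln3: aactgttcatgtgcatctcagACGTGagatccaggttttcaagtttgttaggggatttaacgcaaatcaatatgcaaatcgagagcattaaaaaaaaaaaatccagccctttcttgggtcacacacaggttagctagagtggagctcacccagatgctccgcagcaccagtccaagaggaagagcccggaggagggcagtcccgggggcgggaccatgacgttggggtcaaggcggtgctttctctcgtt
Bnip3: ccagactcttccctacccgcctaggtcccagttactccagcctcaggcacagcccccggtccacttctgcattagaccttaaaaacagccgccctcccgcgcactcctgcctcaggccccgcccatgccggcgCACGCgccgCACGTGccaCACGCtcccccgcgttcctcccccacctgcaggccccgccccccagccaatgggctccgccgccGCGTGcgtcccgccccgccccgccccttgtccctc
Car12: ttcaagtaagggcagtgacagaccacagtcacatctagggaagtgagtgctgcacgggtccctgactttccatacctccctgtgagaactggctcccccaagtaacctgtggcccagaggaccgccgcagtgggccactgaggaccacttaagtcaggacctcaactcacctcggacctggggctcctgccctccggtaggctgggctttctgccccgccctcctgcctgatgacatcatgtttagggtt
In the GENCODE annotation of the same build, the Hk2, Ldhb and Car12 windows end at the base before the gene, and the Slc16a3 window lies inside the gene model, which begins further upstream at base 120948480. The Bnip3 window overlaps the gene model, which reaches base 138909519. The Egln3 gene model reaches only base 54203860, so the RefSeq start used for Egln3 lies outside it. In Hk2 the matches began 226 and 52 bases before the start, both on the opposite strand. In Slc16a3 they began 27 and 14 bases before it, and in Ldhb and Egln3 a single match began 126 and 229 bases before it. Bnip3 held 4 places, the furthest 117 bases before the start, and one of them was a CACGTG. Genes that were higher in EpCAM-, such as Hk2, and genes that were higher in EpCAM+, such as Ldhb, both held the motif, and a match is a description of letters only.

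Every value below is FPKM, a level per length of transcript, so levels can be set side by side between genes. Differences are on the log2(FPKM + 1) scale, which understates the change of genes near 1 FPKM, and folds are ratios of mean FPKM. The sums of FPKM ran from 387489 to 414612 over the 8 libraries. A rough relative depth, the most frequent ratio between libraries among genes of low value, ran from 0.911 to 1.16. Ratios far from even were left out beforehand, so this measure could not show a large difference in depth. The 12 epithelial markers (Epcam, Krt8, Krt18 and others) summed to between 9744 and 10659 FPKM in EpCAM+ and between 19.4 and 34.8 in EpCAM-. The 12 stromal markers (Col1a1, Col1a2, Col3a1 and others) summed to between 12545 and 12990 FPKM in EpCAM- and to 214 and 216 in coculture EpCAM+, against 17.6 and 17.9 in monoculture EpCAM+. Over the 12 stromal markers, the median ratio to the level in the other fraction was 1.70% and 1.72% in coculture EpCAM+. It was 0.121% and 0.137% in monoculture EpCAM+. Over the epithelial markers it was between 0.170% and 0.266% in the EpCAM- libraries. These ratios are called the share of the other fraction below. They cannot tell admixed cells from low marker expression in the sorted cells themselves. Sums of leukocyte, endothelial and erythroid markers stayed at or under 1.48, 1.27 and 0.168 FPKM. Within a group the median member differed between its 2 libraries by between 0.0188 and 0.0404 on the log2 scale, and Ankrd37 in coculture EpCAM+ differed the most, by 0.378.

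**Figure D1:**
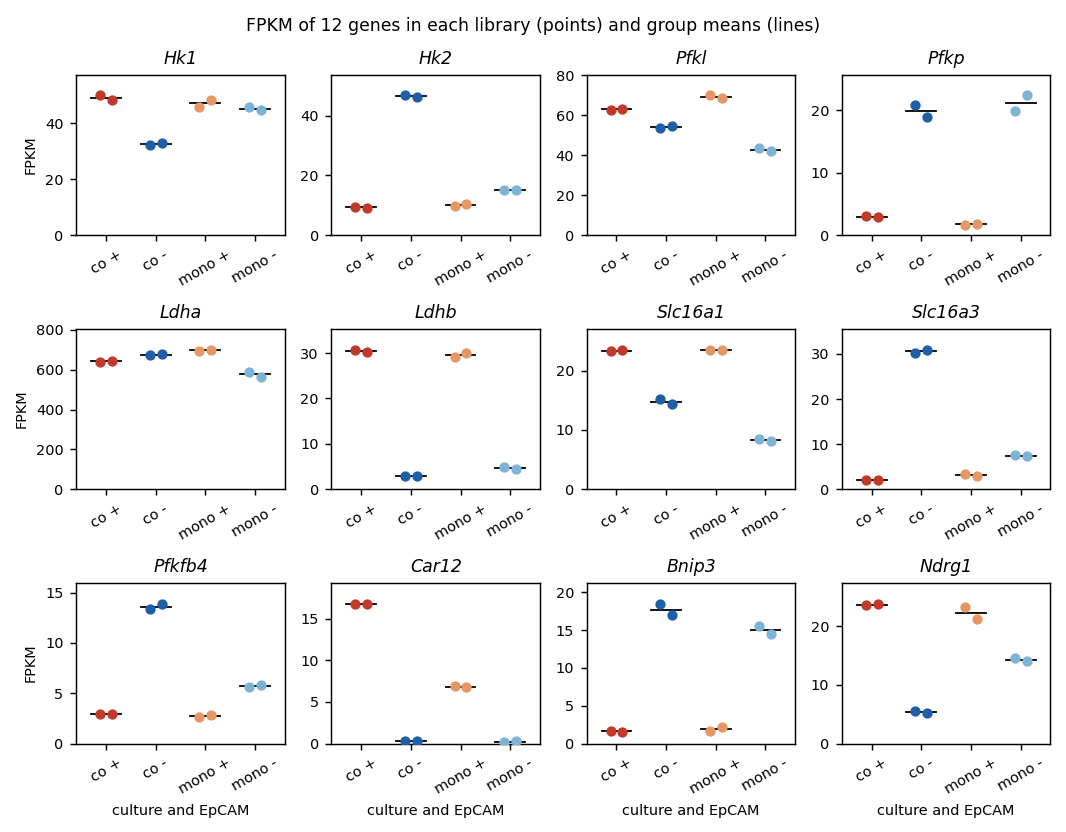
FPKM of genes of the list in the 8 libraries, with a point for each library. Ldhb, Slc16a3, Bnip3 and Car12 separate the fractions.

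Both fractions carried an abundant glycolytic core. Pkm, which encodes pyruvate kinase, averaged 1423 FPKM over the 8 libraries and was the highest of the 32, followed by Eno1, enolase 1, at 730.4, Ldha, the muscle-type lactate dehydrogenase subunit, at 647 and Aldoa, aldolase A, at 488. Slc2a3, the glucose transporter GLUT3, was at or under 0.113 FPKM in all libraries. It was the single member that missed the limit for testing, 1 FPKM in at least 2 libraries. Aldoc, Car9 and Car12 reached 1 FPKM only in EpCAM+ libraries and Egln3 only in EpCAM- libraries, so these 4 passed the limit through the fraction in which they were high. The 14 glycolytic enzymes of the list together gave 1.01% of all FPKM in both coculture EpCAM+ libraries and 0.909% and 0.915% in coculture EpCAM-. They gave 1.05% and 1.06% in monoculture EpCAM+ and 0.821% and 0.813% in monoculture EpCAM-. The summed share was thus lowest in monoculture EpCAM-, and the groups did not overlap. The sum rests most on Pkm and Eno1, which averaged 1779 and 858 FPKM in coculture EpCAM+ against 1083 and 599 in coculture EpCAM-. In monoculture they averaged 1806 and 952 against 1024 and 512. By the tests below, 6 of the 14 enzymes were higher and 8 lower in EpCAM+ in coculture, where all genes gave 59.2% and 28%. The sum therefore does not describe the enzymes one by one.

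The first question was how EpCAM+ and EpCAM- cells differ. In coculture, the genes with the widest gaps toward EpCAM+ were Car12, Ldhb, Ndrg1, Aldoc and Car9, and those toward EpCAM- were Slc16a3, Bnip3, Pfkp, Hk2, Eno2, Egln3, Pfkfb4 and Pfkfb3. These 13 were also the members that passed the test with at least a 2-fold difference on the log2 scale. Among them Aldoc, Car9, Car12 and Egln3 entered the test only through the fraction in which they were high. Their calls between the fractions, counted below, add no support to their values. Of the 31 members tested, 13 were called higher and 18 lower in EpCAM+ than in EpCAM- at an adjusted p under 0.05 (limma, Benjamini-Hochberg over 12012 genes). All genes tested gave 59.2% higher and 28% lower, or 87.2% in either direction. At 2-fold, 5 members were higher and 8 lower, against 16.5% and 10.1% of all genes (26.5% in either direction). The members' median difference was -0.33, beside 0.26 over all genes. In monoculture 13 members were called higher and 15 lower, against 55.4% and 32.4% of all genes (87.9% in either direction). At 2-fold 5 were higher and 5 lower, against 15.5% and 12.6% of all genes (28.1% in either direction), and the median was -0.04 beside 0.23. With most genes called, a call by itself says little here, and the sizes below carry the description. Scaling by the median of ratios lowers the median of all genes by 0.26 in coculture and 0.22 in monoculture, and quantile normalization by 0.25 and 0.15, so small differences between the fractions are relative to that shift. In bulk samples such as these, fewer cells of a type with a gene and less RNA of it per cell cannot be told apart.

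**Figure D2:**
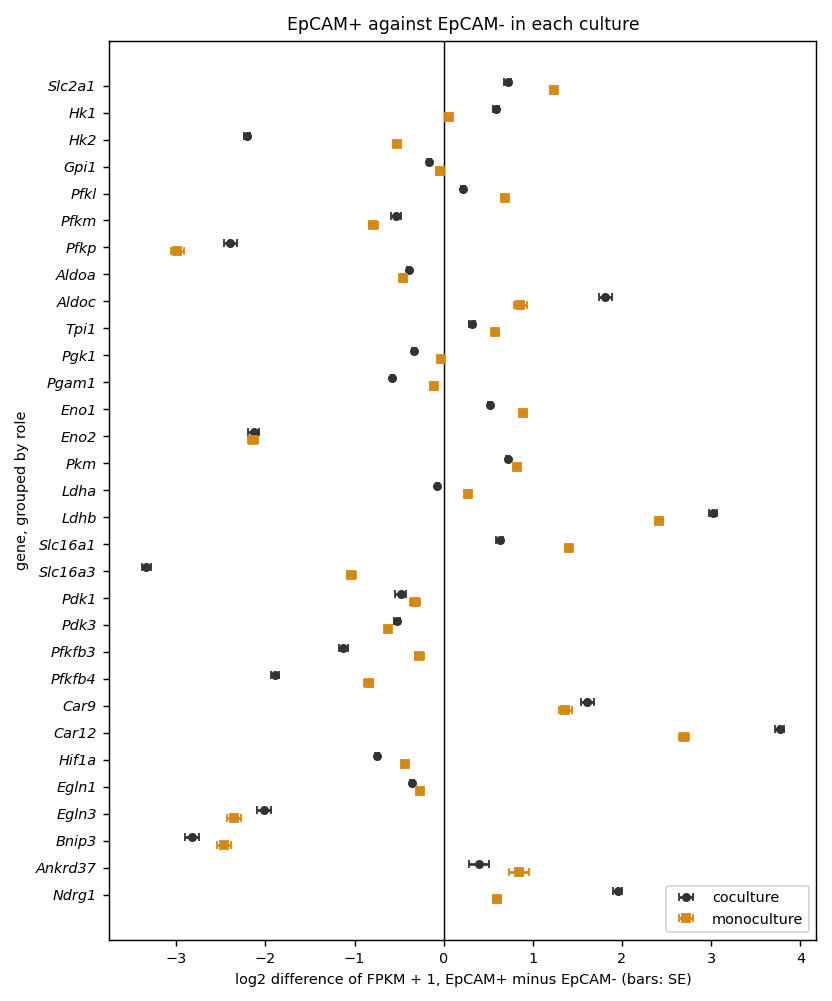
Log2 difference in FPKM + 1 between EpCAM+ and EpCAM- for the 31 tested genes, with SE, in coculture and in monoculture. Points right of 0 are higher in EpCAM+. Slc16a3, Hk2, Pfkfb4, Pfkfb3 and Ndrg1 lie nearer 0 in monoculture than in coculture, while Bnip3, Pfkp, Eno2 and Egln3 lie near -2 or below in both.

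Of the 2 glucose transporters in the list, Slc2a1 was higher in EpCAM+ and Slc2a3 was too low to test. Slc2a1, which encodes GLUT1, the main glucose transporter of many tumours, read 64.8 and 65.3 FPKM in coculture EpCAM+ and 39.7 and 38.7 in coculture EpCAM-. It read 71.8 and 70.8 in monoculture EpCAM+ and 30.8 and 28.6 in monoculture EpCAM-. Every EpCAM+ library lay above every EpCAM- library. The fold was 1.66 in coculture (log2 difference 0.72, SE 0.036, adjusted p = 3.01e-07) and 2.40 in monoculture (1.24, SE 0.036, adjusted p = 9.18e-09).

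Hexokinase, which traps glucose in the cell, was split between its isozymes. Hk2, the inducible hexokinase of muscle and many tumours, read 9.43 and 9.15 FPKM in coculture EpCAM+, 46.7 and 46.1 in coculture EpCAM-, 9.95 and 10.5 in monoculture EpCAM+ and 14.96 and 15.2 in monoculture EpCAM-. The coculture EpCAM- libraries stood far above the other 6, and both EpCAM- groups stayed above both EpCAM+ groups. Hk2 was 5.00-fold lower in EpCAM+ in coculture (-2.20, SE 0.0354, adjusted p = 3.07e-10) and 1.48-fold lower in monoculture (-0.52, SE 0.0354, adjusted p = 1.87e-06). Hk1, the widely expressed isozyme, read 49.8 and 48.3 FPKM in coculture EpCAM+, 32.02 and 32.9 in coculture EpCAM-, 45.8 and 48.2 in monoculture EpCAM+ and 45.6 and 44.7 in monoculture EpCAM-. Coculture EpCAM- was thus the low group for Hk1 and the high group for Hk2. In monoculture the fractions' difference in Hk1 was 0.06 with an SE of 0.0321 and did not pass the test (adjusted p = 0.132), and it reversed to -0.20 under median-of-ratios scaling. Of the summed FPKM of both hexokinases, Hk2 held 15.9% in both coculture EpCAM+ libraries, 58.4% and 59.3% in coculture EpCAM-, 17.8% and 17.9% in monoculture EpCAM+ and 24.7% and 25.5% in monoculture EpCAM-.

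Phosphofructokinase, the committed step of glycolysis, also differed by isozyme. Pfkp, the platelet-type isozyme, read 3.06 and 2.89 FPKM in coculture EpCAM+, 20.9 and 19.0 in coculture EpCAM-, 1.69 and 1.88 in monoculture EpCAM+ and 19.9 and 22.4 in monoculture EpCAM-. It was low in all EpCAM+ libraries and high in all EpCAM- libraries, by 6.69-fold in coculture (-2.39, SE 0.0705, adjusted p = 1.08e-08) and 11.8-fold in monoculture (-2.99, SE 0.0705, adjusted p = 2.59e-09). Pfkl, the liver-type isozyme and the most abundant in every group, ran between 62.9 and 70.0 FPKM in EpCAM+ and between 42.2 and 54.6 in EpCAM-. Its difference was 0.68 in monoculture (SE 0.0238, adjusted p = 2.75e-08), and 0.21 in coculture, where it turned to -0.07 under median-of-ratios scaling. Pfkm, the muscle type, was lower in EpCAM+ by 1.50-fold in coculture and 1.82-fold in monoculture. Pfkp held between 2.13% and 4.07% of phosphofructokinase FPKM in EpCAM+ and between 21.6% and 28.2% in EpCAM-.

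The regulatory kinases of the list were lower in EpCAM+, though the PFKFB family as a whole was split. Pfkfb4 encodes one of the bifunctional enzymes that set fructose 2,6-bisphosphate. It read 2.91 and 2.95 FPKM in coculture EpCAM+, 13.3 and 13.9 in coculture EpCAM-, 2.61 and 2.85 in monoculture EpCAM+ and 5.60 and 5.79 in monoculture EpCAM-. The coculture EpCAM- libraries were again the highest, and EpCAM+ was 4.64-fold lower in coculture (-1.89, SE 0.049, adjusted p = 4.97e-09) and 2.08-fold lower in monoculture (-0.84, SE 0.049, adjusted p = 6.84e-07). Pfkfb3, its relative with the strongest kinase side, was 2.56-fold lower in EpCAM+ in coculture (-1.13) and 1.27-fold lower in monoculture (-0.27). Pfkfb1 and Pfkfb2, family members outside the list, went the other way in both cultures, with log2 differences of 0.50 and 1.14 in coculture and 0.44 and 0.55 in monoculture. Pfkfb2 held 39.3% and 41.4% of the PFKFB family's FPKM in coculture EpCAM+, more than any other member there. Pdk1 and Pdk3, kinases that switch off pyruvate dehydrogenase and so hold pyruvate back from mitochondria, were lower in EpCAM+ in both cultures by between 1.34-fold and 1.58-fold. All 4 regulatory kinases of the list were therefore lower in EpCAM+ in each culture.

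The middle of the pathway differed by less. Gpi1 (glucose phosphate isomerase), Aldoa, Pgk1 (phosphoglycerate kinase) and Pgam1 (phosphoglycerate mutase) were lower in EpCAM+ in coculture by between 1.12-fold and 1.49-fold. In monoculture Aldoa stayed 1.37-fold lower and Pgam1 1.08-fold lower, while Gpi1 (-0.04, adjusted p = 0.152) and Pgk1 (-0.03, adjusted p = 0.28) did not pass the test. Both passed it as lower under each of the other scalings, and the EpCAM+ and EpCAM- libraries of Pgk1 overlapped in monoculture. Tpi1, triose phosphate isomerase, was 1.25-fold higher in EpCAM+ in coculture, a call that was lost under median-of-ratios scaling, and 1.50-fold higher in monoculture. Eno1 read 852 and 863 FPKM in coculture EpCAM+, 593 and 606 in coculture EpCAM-, 949 and 956 in monoculture EpCAM+ and 519 and 506 in monoculture EpCAM-. Pkm read 1774 and 1784 FPKM in coculture EpCAM+, 1080.5 and 1086 in coculture EpCAM-, 1800.0 and 1813 in monoculture EpCAM+ and 1038 and 1009.5 in monoculture EpCAM-. For both genes every EpCAM+ library was above every EpCAM- library, by 1.43-fold and 1.86-fold for Eno1 and by 1.64-fold and 1.76-fold for Pkm (log2 differences 0.72 and 0.82, SE 0.0182).

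The minor isozymes of aldolase and enolase went opposite ways. Aldoc, the brain-type aldolase, read 2.88 and 2.85 FPKM in coculture EpCAM+ and 1.22 and 0.926 in monoculture EpCAM+, and was at or under 0.158 in all EpCAM- libraries. The log2 difference was 1.81 in coculture (SE 0.0729) and 0.86 in monoculture. Eno2, the neuronal enolase, read 1.21 and 1.35 FPKM in coculture EpCAM+, 8.79 and 9.18 in coculture EpCAM-, 0.544 and 0.684 in monoculture EpCAM+ and 6.02 and 6.18 in monoculture EpCAM-. It was lower in EpCAM+ by 7.02-fold (-2.13, SE 0.0597) and 9.94-fold (-2.14, SE 0.0597). Aldoc held at most 0.672% of the FPKM of the aldolase pair and Eno2 at most 1.45% of that of the 3 enolases counted, so both are small parts of their families.

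The genes of the lactate step were split between the fractions. Ldhb, whose subunit forms the lactate dehydrogenase that favours lactate oxidation in heart, read 30.7 and 30.2 FPKM in coculture EpCAM+, 2.91 and 2.86 in coculture EpCAM-, 29.1 and 30.1 in monoculture EpCAM+ and 4.99 and 4.51 in monoculture EpCAM-. The EpCAM+ libraries lay close together and far above all EpCAM- libraries, by 10.6-fold in coculture (3.02, SE 0.0462, adjusted p = 2.39e-10) and 6.22-fold in monoculture (2.41, SE 0.0462, adjusted p = 7.55e-10). Ldha read 639 and 645 FPKM in coculture EpCAM+, 672 and 677 in coculture EpCAM-, 694 and 699.9 in monoculture EpCAM+ and 587 and 565 in monoculture EpCAM-. In coculture the Ldha difference of -0.07 (adjusted p = 0.0122) reversed to 0.06 under quantile normalization, and the call was lost without coculture EpCAM+ replicate 1 (adjusted p = 0.0698) or without coculture EpCAM- replicate 2 (adjusted p = 0.0709). In monoculture it was 1.21-fold higher in EpCAM+ (0.27), a call lost under median-of-ratios scaling. Ldha was therefore near even between the fractions while Ldhb was not, and Ldhb held between 4.02% and 4.59% of the pair in EpCAM+ against between 0.421% and 0.844% in EpCAM-.

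Slc16a3, the transporter of lactate-exporting cells, read 2.14 and 2.11 FPKM in coculture EpCAM+, 30.2 and 30.9 in coculture EpCAM-, 3.35 and 2.94 in monoculture EpCAM+ and 7.60 and 7.38 in monoculture EpCAM-. The coculture EpCAM- libraries stood above all others, and monoculture EpCAM- was next. EpCAM+ was 14.4-fold lower in coculture (-3.34, SE 0.0533, adjusted p = 3.01e-10) and 2.38-fold lower in monoculture (-1.04, SE 0.0533, adjusted p = 3.13e-07). Slc16a1, which encodes MCT1, a carrier that works in either direction, read 23.3 and 23.4 FPKM in coculture EpCAM+, 15.2 and 14.4 in coculture EpCAM-, 23.5 and 23.4 in monoculture EpCAM+ and 8.40 and 8.14 in monoculture EpCAM-. It was higher in every EpCAM+ library, by 1.58-fold in coculture (0.63) and 2.84-fold in monoculture (1.40, SE 0.0344, adjusted p = 3.28e-09). Slc16a3 made up 8.27% and 8.41% of the summed FPKM of this pair in coculture EpCAM+, 66.5% and 68.2% in coculture EpCAM-, 11.2% and 12.5% in monoculture EpCAM+ and 47.5% and 47.6% in monoculture EpCAM-. MCT4 transcripts were thus the larger part of the pair in coculture EpCAM- alone among the 4 groups.

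**Figure D3:**
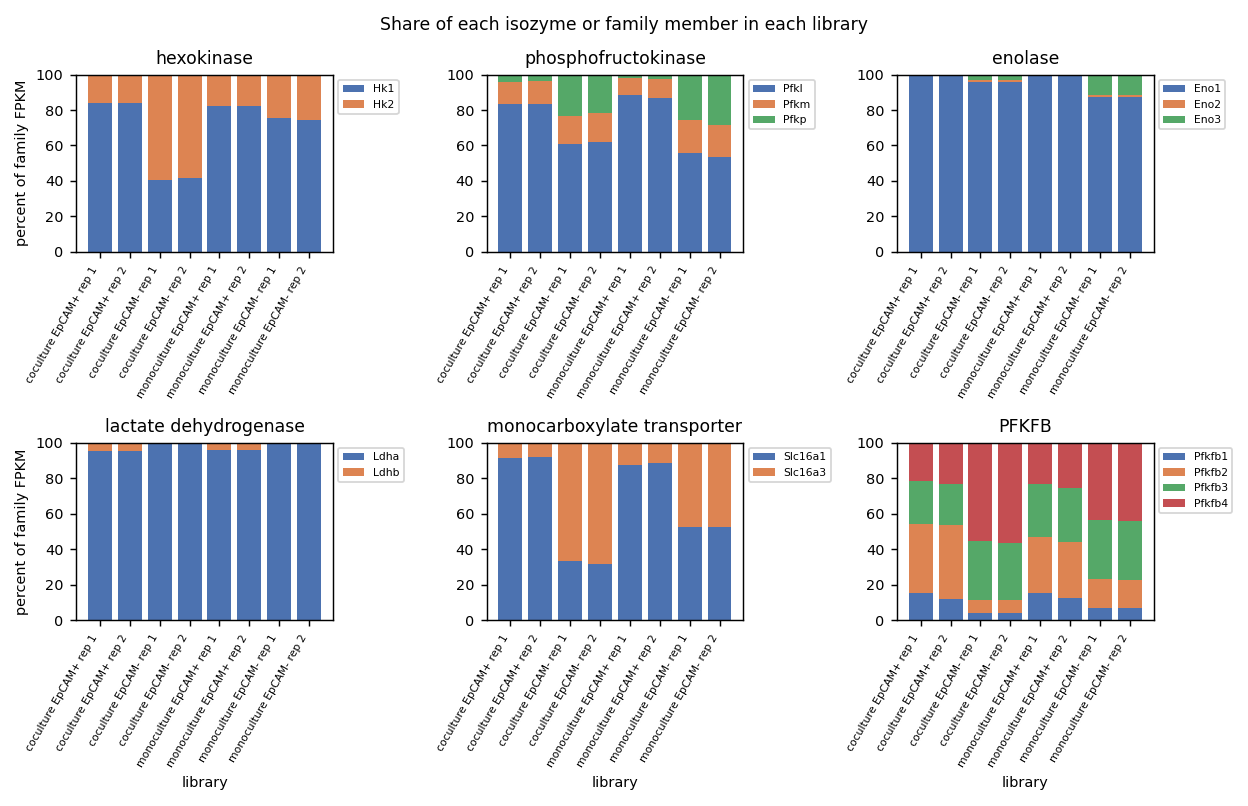
Percent of the summed FPKM of a family held by each of its genes, in each of the 8 libraries, for 6 families. Hk2, Pfkp, Slc16a3 and Pfkfb4 take larger parts in EpCAM- and Ldhb takes a larger part in EpCAM+, and the 2 libraries of each group agree closely.

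Car9 and Car12, carbonic anhydrases that handle acid at the cell surface and are classical hypoxia genes, were higher in EpCAM+. Car12 read 16.8 FPKM in both coculture EpCAM+ libraries, 0.269 and 0.343 in coculture EpCAM-, 6.86 and 6.80 in monoculture EpCAM+ and 0.174 and 0.245 in monoculture EpCAM-. Its log2 difference was 3.77 in coculture (SE 0.0521) and 2.70 in monoculture (SE 0.0521), and coculture EpCAM+ was the highest group. Car9 read 2.19 and 2.54 FPKM in coculture EpCAM+ and 1.80 and 1.86 in monoculture EpCAM+, and was at or under 0.153 in the EpCAM- libraries. Its differences were 1.61 and 1.36 (SE 0.0737).

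Hif1a, Egln1 and Egln3, the oxygen-sensing genes of the list, were higher in EpCAM-. Genes of the same system outside the list went both ways. Epas1, which encodes HIF-2 alpha, was higher in EpCAM+ by 2.16 in coculture and 1.14 in monoculture on the log2 scale. Hif1an, the asparagine hydroxylase of HIF, was higher by 0.58 and 0.38. Egln2, another HIF prolyl hydroxylase, was lower in FPKM in EpCAM+ than in EpCAM- in both cultures. Hif1a, the oxygen-regulated subunit of HIF, whose control lies mainly in protein stability and is not seen in RNA, read 42.7 FPKM in both coculture EpCAM+ libraries, 71.99 and 72.6 in coculture EpCAM-, 40.6 and 41.1 in monoculture EpCAM+ and 54.6 and 56.1 in monoculture EpCAM-. It was 1.69-fold lower in EpCAM+ in coculture (-0.75, SE 0.0227) and 1.36-fold lower in monoculture (-0.43, SE 0.0227). Egln1, the main HIF prolyl hydroxylase, was 1.29-fold and 1.21-fold lower. Egln3 read 0.643 and 0.393 FPKM in coculture EpCAM+, 4.94 and 5.33 in coculture EpCAM-, 0.185 and 0.181 in monoculture EpCAM+ and 5.15 and 4.91 in monoculture EpCAM-. The fractions were well apart in both cultures, with log2 differences of -2.02 (SE 0.0805) and -2.35.

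The remaining HIF targets split. Bnip3, which marks mitochondria for removal, read 1.70 and 1.59 FPKM in coculture EpCAM+, 18.5 and 16.9 in coculture EpCAM-, 1.70 and 2.14 in monoculture EpCAM+ and 15.6 and 14.5 in monoculture EpCAM-. It was 10.8-fold lower in EpCAM+ in coculture (-2.82, SE 0.079) and 7.83-fold lower in monoculture (-2.46, SE 0.079), with no overlap. Ndrg1, a stress and differentiation gene that is read as a hypoxia marker, went the other way, with 23.5 and 23.8 FPKM in coculture EpCAM+, 5.53 and 5.26 in coculture EpCAM-, 23.2 and 21.2 in monoculture EpCAM+ and 14.5 and 14.1 in monoculture EpCAM-. It was higher in EpCAM+ by 4.39-fold in coculture (1.95, SE 0.0474, adjusted p = 3.41e-09) and 1.55-fold in monoculture (0.60, adjusted p = 5.12e-06). Ankrd37, a small ankyrin repeat gene, read 1.45 and 2.19 FPKM in coculture EpCAM+ and between 1.10 and 1.13 in EpCAM-. Its coculture difference of 0.40 fell to 0.21 without coculture EpCAM+ replicate 2 and its call was lost under both other scalings. Its monoculture difference was 0.84 (SE 0.113, adjusted p = 0.000152). No single direction held for the HIF-linked genes of the list: Bnip3, Egln3, Slc16a3 and Hk2 were higher in EpCAM-, and Car9, Car12, Ndrg1 and Slc2a1 were higher in EpCAM+, in both cultures.

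**Figure D4:**
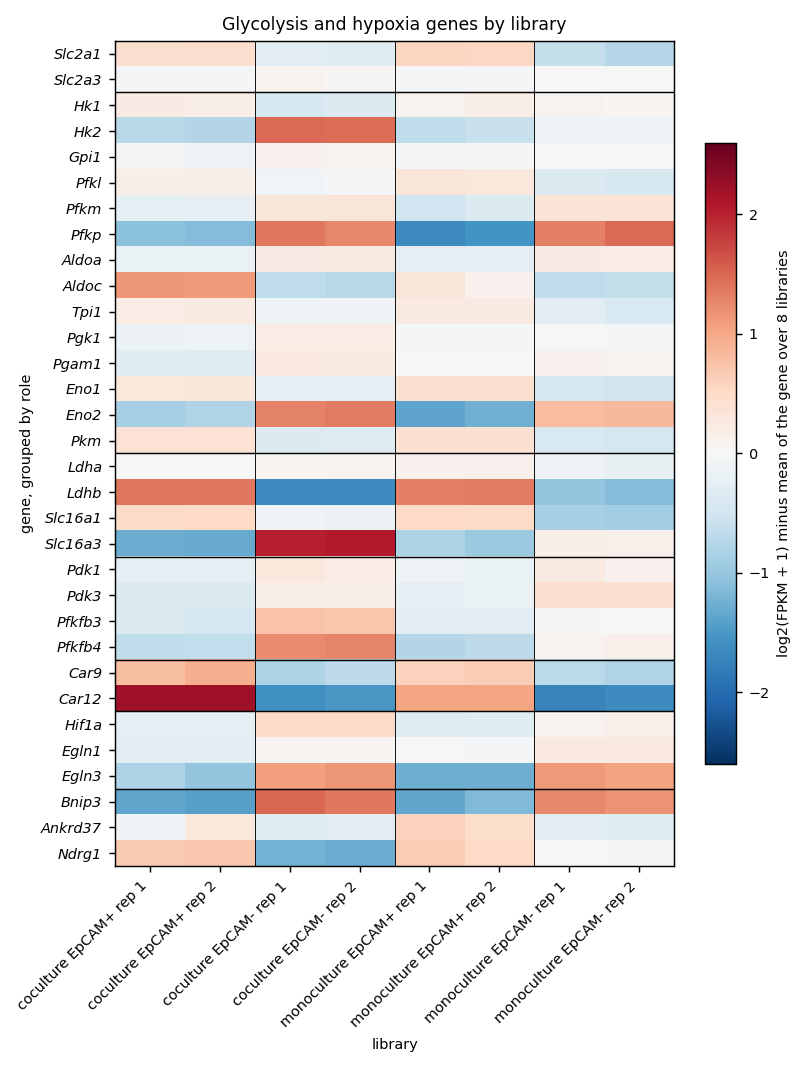
Log2(FPKM + 1) of each of the 32 genes minus its mean over the 8 libraries, with genes in rows by role and libraries in columns. The 2 libraries of a group look alike, Slc16a3 is deepest red in coculture EpCAM-, and Car12 is deepest red in coculture EpCAM+.

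The next question was how each fraction differed between coculture and monoculture. In EpCAM-, Slc16a3, Hk2 and Pfkfb4 were lower in monoculture by more than 2-fold on the log2 scale, and Ndrg1 was higher by more than 2-fold. Slc16a3 went from 30.2 and 30.9 FPKM in coculture to 7.60 and 7.38 in monoculture (4.08-fold, -1.89, SE 0.0533, adjusted p = 7.18e-08). Hk2 went from 46.7 and 46.1 to 14.96 and 15.2 (3.07-fold, -1.56, SE 0.0354, adjusted p = 2.47e-08), and Pfkfb4 from 13.3 and 13.9 to 5.60 and 5.79 (2.39-fold, -1.13, SE 0.049, adjusted p = 6.81e-07). In each of these 3 genes both monoculture libraries lay below both coculture libraries. Ndrg1 went the other way, from 5.53 and 5.26 to 14.5 and 14.1 (2.65-fold, 1.26, SE 0.0474, adjusted p = 3.12e-07).

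Of the 31 members tested in EpCAM-, 5 were called higher in monoculture (limma, Benjamini-Hochberg), against 32.4% of all genes, and 17 were called lower, against 30.3% of all genes (62.7% in either direction). At 2-fold 1 was higher and 3 were lower, against 2.56% and 1.96% of all genes (4.52% in either direction). The median was -0.11 beside 0.00 over all genes. Slc16a1 was 1.79-fold lower (-0.77, SE 0.0344), Pfkfb3 1.83-fold lower (-0.75, SE 0.0501), Eno2 1.47-fold lower (-0.49) and Slc2a1 1.32-fold lower (-0.39). Hif1a was 1.31-fold lower (-0.38) and Pfkl 1.26-fold lower (-0.33). Tpi1, Eno1, Ldha, Pgk1, Pgam1, Gpi1 and Pkm were called lower by between 1.06-fold and 1.17-fold, differences that are small beside those of Slc16a3 and Hk2, and the call for Pkm was lost in a fit of the 4 EpCAM- libraries alone. Ldhb (0.56, SE 0.0462), Hk1 (0.46, SE 0.0321), Pdk3 (0.26) and Egln1 (0.19) were the other members called higher. The fall of Bnip3 (-0.22, adjusted p = 0.0404) lost its call under median-of-ratios scaling, with a pseudocount of 0.1 and with no filter on low values. The call was also lost with the replicate number as a block and without each of 5 libraries. Over all alternatives the Bnip3 difference ran from -0.28 to -0.16. Pfkm, Pfkp, Aldoa, Aldoc, Pdk1, Car9, Car12, Egln3 and Ankrd37 did not pass the test. The libraries of the cultures overlapped in all of these but Pfkm and Car12, and overlap was not counted over all genes. The hypoxia-linked genes thus did not move as a block in EpCAM-: Egln3 was at 4.94 and 5.33 FPKM in coculture and 5.15 and 4.91 in monoculture, while Slc16a3 and Hk2 fell.

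In EpCAM+ the differences between the cultures were smaller. Car12 went from 16.8 FPKM in both coculture libraries to 6.86 and 6.80 in monoculture (2.46-fold lower, -1.18, SE 0.0521, adjusted p = 1.8e-06), and it was the single member past a log2 difference of 1. Aldoc went from 2.88 and 2.85 to 1.22 and 0.926 (2.66-fold, -0.90, SE 0.0729, adjusted p = 4.48e-05). In both genes the monoculture libraries lay below the coculture libraries. By the ratio of mean FPKM, Egln3 (2.83-fold) and Eno2 (2.09-fold) were also past 2-fold, at levels near or under 1 FPKM. Slc16a3 was higher in monoculture, at 3.35 and 2.94 against 2.14 and 2.11 FPKM (0.41, SE 0.0533, adjusted p = 0.000546), and Pgam1 was 1.25-fold higher (0.32), Egln1 1.23-fold higher (0.28).

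Of the 31 members tested in EpCAM+, 11 were called higher in monoculture (limma, Benjamini-Hochberg), against 16.4% of all genes, and 8 lower, against 34.9% (51.4% in either direction). Median-of-ratios scaling gave 15 higher and 6 lower, and quantile normalization 13 higher and 6 lower. At a log2 difference of 1 limma called none higher and 1 lower, against 0.266% and 1.67% of all genes (1.94% in either direction), and the median was 0.03 beside -0.06. The lower calls fell to 5 without coculture EpCAM+ replicate 2. Most of these calls were small. Slc2a1 (0.13) lost its call without any one of the 4 EpCAM+ libraries, with adjusted p from 0.0541 to 0.0862. Hk2 (0.13) lost it without coculture EpCAM+ replicate 2 or monoculture EpCAM+ replicate 2. Pfkm (-0.21) and Aldoa (-0.08) lost it without coculture EpCAM+ replicate 2, Aldoa also without monoculture EpCAM+ replicate 1, and Pfkm was at -0.13 without that library. Car9 (-0.25) lost its call without coculture EpCAM+ replicate 2, monoculture EpCAM+ replicate 1 or monoculture EpCAM+ replicate 2. It also lost it under both other scalings and with a pseudocount of 0.1. Quantile normalization removed the calls for Pfkm, Ldha and Egln3 as well, and median-of-ratios scaling or eBayes without trend that for Aldoa. A fit of the 4 EpCAM+ libraries alone removed those for Hk2, Pfkm and Ankrd37. Ankrd37 (0.44) lost it without monoculture EpCAM+ replicate 1 and was at 0.25 without coculture EpCAM+ replicate 1. Pkm (0.02, adjusted p = 0.347) did not pass the test and reversed to -0.07 under quantile normalization.

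The share of the other fraction, as read from markers, differs between the EpCAM+ groups, and subtracting it altered some of these small changes. Whether it reflects admixed cells was not tested. With that share subtracted from every library, the Slc16a3 difference was 0.67 in place of 0.41 and that of Hk2 was 0.24 in place of 0.13. Bnip3, at 0.14 and not called as deposited, was at 0.30 and was called higher in monoculture (adjusted p = 0.016). Pfkp, called lower in monoculture at -0.51, was at -0.40, and Aldoa at -0.05 no longer passed (adjusted p = 0.0631). Egln3, also called lower, was -0.35 as deposited and -0.23 without coculture EpCAM+ replicate 1.

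**Figure D5:**
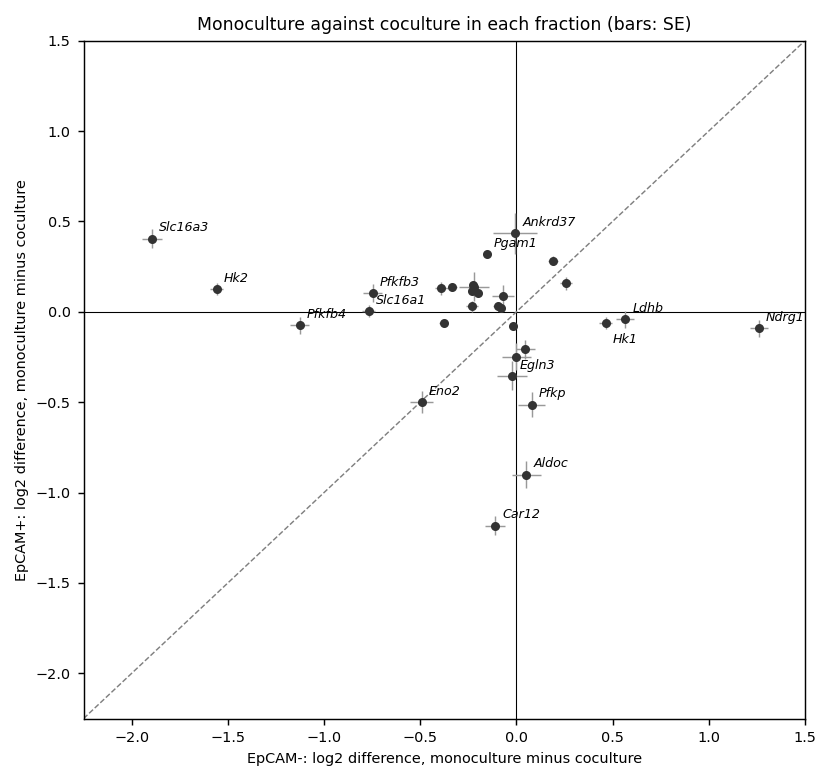
Log2 difference in FPKM + 1 between monoculture and coculture in EpCAM+ (vertical axis) against that in EpCAM- (horizontal axis) for the 31 tested genes, with SE, and a dashed line of equal change. Slc16a3, Hk2 and Pfkfb4 lie far left, Ndrg1 far right and Car12 and Aldoc low, while Eno2 lies on the line of equal change on this scale, though its ratios of mean FPKM were 2.09 in EpCAM+ and 1.47 in EpCAM-.

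The interaction tests whether the change from coculture to monoculture differed between the fractions, as the change in EpCAM+ minus that in EpCAM-. Slc16a3 had the largest difference among the members (2.30, SE 0.0754, adjusted p = 2.59e-07), followed by Hk2 (1.68, SE 0.05, adjusted p = 1.76e-07), Ndrg1 (-1.35, SE 0.0671, adjusted p = 1.77e-06), Car12 (-1.07, SE 0.0737, adjusted p = 9.58e-06) and Pfkfb4 (1.05, SE 0.0693, adjusted p = 7.77e-06). For Slc16a3, Hk2, Pfkfb4 and Ndrg1 the EpCAM- libraries held most of the change, and for Car12 the EpCAM+ libraries did. Of the 31 members, 18 were called with a positive difference, against 26% of all genes, and 8 with a negative one, against 39.2% (65.2% in either direction). At 2-fold 3 were positive and 2 negative, against 2.43% and 5.66% of all genes (8.09% in either direction). Eno2 was lower in monoculture in both fractions, by -0.50 in EpCAM+ and -0.49 in EpCAM- on the log2(FPKM + 1) scale, with a difference of -0.01 and an SE of 0.0844 (adjusted p = 0.943). That near equality depends on the pseudocount: the ratio of mean FPKM was 2.09-fold in EpCAM+ and 1.47-fold in EpCAM-, and with a pseudocount of 0.1 the Eno2 difference was -0.41 and passed (adjusted p = 0.0484). Aldoa, Pdk1, Pdk3 and Car9 did not pass either. The calls for Egln1, Egln3, Bnip3 and Ankrd37, with adjusted p from 0.0225 to 0.0465, were each lost without at least 4 of the libraries left out in turn.

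Genes of the same pathways outside the list were read from 3 further lists. Of 21 other glycolysis genes in the files 12 were tested, and in coculture 6 were higher and 6 lower in EpCAM+, where all genes gave 59.2% and 28%. In monoculture EpCAM- against coculture EpCAM- 6 were higher and 3 lower, where all genes gave 32.4% and 30.3%. Eno3, the muscle enolase, averaged 17.6 FPKM in coculture EpCAM- and 67.4 in monoculture EpCAM- (1.88, SE 0.0559, adjusted p = 9.31e-08), so it rose where Hk2 and Slc16a3 fell, and it made up 11.5% of the 3 enolases in monoculture EpCAM- against 2.80% and 2.81% in coculture EpCAM-. Slc2a10, a facilitative glucose transporter, averaged 8.26 FPKM in coculture EpCAM- and 0.132 in coculture EpCAM+ (-3.03). In monoculture EpCAM+ it averaged 0.0213. It thus met the limit for testing through EpCAM- only, and its place among the 6 lower adds no support to its values. Bpgm, which makes 2,3-bisphosphoglycerate, and Pfkfb2 were higher in EpCAM+ in coculture (1.30 and 1.14). Gapdh, the glyceraldehyde phosphate dehydrogenase, read 51.5 and 52.0 FPKM in coculture EpCAM+, 41.5 and 44.1 in coculture EpCAM-, 53.0 and 50.4 in monoculture EpCAM+ and 36.0 and 36.1 in monoculture EpCAM-. In EpCAM- it was 1.19-fold lower in monoculture (-0.24).

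Of 31 genes of the pyruvate, glycogen and pentose phosphate branches 30 were tested. In coculture 20 were higher and 6 lower in EpCAM+, shares near the 59.2% and 28% of all genes. Those higher included Gpd1 (3.47) and Gpd1l (2.51), glycerol phosphate dehydrogenases, Ldhd (3.16), the D-lactate dehydrogenase, and Pdhx (3.09), a part of the pyruvate dehydrogenase complex. In coculture EpCAM- Gpd1 and Ldhd averaged 0.0922 and 0.0184 FPKM, under the limit for testing that their EpCAM+ libraries met. Their calls between the fractions, counted among the 20, therefore add no support to their values. In monoculture EpCAM- 15 were higher and 10 lower than in coculture, against 32.4% and 30.3% of all genes, with Mpc1 (0.63), a subunit of the mitochondrial pyruvate carrier, and G6pdx (0.58), the entry enzyme of the pentose phosphate pathway, among those higher. In EpCAM+ 16 were lower in monoculture, against 34.9% of all genes, Ldhd by 2.17-fold (-0.94). Limma called none higher, against 16.4% of all genes, nor did any pass as higher at an unadjusted p under 0.05.

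Of 35 other HIF pathway genes 33 were tested, with 15 higher and 14 lower in EpCAM+ in coculture, where all genes gave 59.2% and 28%. In monoculture 15 were higher and 15 lower, where all genes gave 55.4% and 32.4%. P4ha1, a collagen prolyl hydroxylase, averaged 112 FPKM in coculture EpCAM- and 7.09 in coculture EpCAM+ (-3.80), and Plin2, a lipid droplet coat protein, was 5.15-fold higher in coculture EpCAM+ (2.35). In EpCAM- 14 were higher and 14 lower in monoculture, against 32.4% and 30.3% of all genes. Among them Adm, the peptide adrenomedullin, averaged 8.00 FPKM in coculture and 77.2 in monoculture (3.12, adjusted p = 3.96e-09). Vegfa, the vascular growth factor, read 94.7 and 97.2 FPKM in coculture EpCAM- and 50.3 and 49.3 in monoculture EpCAM-. These HIF targets moved in opposite directions within the same libraries, as Slc16a3 and Ndrg1 did.

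Several members have near-identical copies, from which reads can be hard to tell apart, and how shared reads were counted is not given in the sources used here. At 90% identity over at least 300 bases of transcript, Ldha matched 13 other genes, Pkm 8, Eno1 6, Bnip3 6, Pgk1 4 and Pgam1 3. The copy Eno1b was listed in the files at between 245 and 463 FPKM and was higher in EpCAM+ than in EpCAM- in the same way as Eno1. Enolase shares above leave Eno1b out. Gm12070, a copy of Gapdh, was listed at between 80.2 and 126 FPKM, above Gapdh itself, so the Gapdh level is uncertain. Slc2a1, Hk1, Hk2, Pfkl, Pfkm and Pfkp had no such match.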

How the data were processed

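RNA of 8 libraries, 2 for each of 4 groups taken from the labels, was measured by paired-end sequencing. The submitters' processing notes list HISAT2, HTSeq, SAMtools, edgeR, cutadapt and FastQC and the mouse build mm10, with no roles or versions. The deposited values are FPKM per gene, as the authors computed them. The annotation used and any scaling between libraries were not given in the sources used here. Read counts are unknown, so no counting interval is given.

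The 12012 genes that reached 1 FPKM in at least 2 libraries were fitted as log2(FPKM + 1) with limma 3.58.1 in R 4.3.3. The model had a mean for each of the 4 groups and used all 8 libraries (eBayes with trend, residual degrees of freedom 4). P-values are two-sided, with Benjamini-Hochberg adjustment across all 12012 genes. Calls needed an adjusted p under 0.05, and a second rule also asked for a log2 difference of at least 1 in size. The spread was pooled over the 4 groups because 4 libraries by themselves leave only 2 residual degrees of freedom. An exact test was not used, since 2 libraries against 2 allow no exact p under 0.333. The script was checked on simulated data. Alternatives were another pseudocount, other filters, scalings, eBayes without trend, the 4 libraries alone, a replicate block, subtraction of the other fraction's share, and each library left out.

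The members and lists were chosen with earlier results of these data known. All 32 members are named. From each further list and comparison, up to 4 called genes could be named, by size of difference, if the higher group averaged 5 FPKM or more, and Gapdh always. Vegfa, Epas1, Hif1an, Egln2, Pfkfb1, Eno1b and Gm12070 were named after their values were seen. A planned comparison of protein sequences was not made, since no protein table was used here. Promoters are RefSeq's, and copies were searched with BLAST 2.17.0 in GENCODE transcripts, Aldoa left out because its name was not unique. Tables and figures used Python 3.11.15, pandas 2.3.3, NumPy 2.4.6 and matplotlib 3.10.9.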

Additional observations from a re-analysis of the deposited data

Results flagged for a closer look

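Of the 31 members tested, 26 had a change from coculture to monoculture that differed between EpCAM+ and EpCAM- by the interaction test in limma at an adjusted p under 0.05, where 65.2% of all genes did. Values are log2 differences, the change in EpCAM+ minus that in EpCAM-. Among glucose uptake and the glycolytic enzymes they were 0.52 for Slc2a1, -0.53 for Hk1, 1.68 for Hk2, 0.13 for Gpi1, 0.47 for Pfkl, -0.25 for Pfkm and -0.59 for Pfkp. They were -0.95 for Aldoc, 0.26 for Tpi1, 0.30 for Pgk1, 0.47 for Pgam1, 0.38 for Eno1 and 0.10 for Pkm. At the lactate step they were 0.35 for Ldha, -0.61 for Ldhb, 0.77 for Slc16a1 and 2.30 for Slc16a3. The kinases Pfkfb3 and Pfkfb4 gave 0.85 and 1.05, and the carbonic anhydrase Car12 gave -1.07. Among the oxygen-sensing genes and HIF targets they were 0.32 for Hif1a, 0.0927 for Egln1, -0.33 for Egln3, 0.36 for Bnip3, 0.44 for Ankrd37 and -1.35 for Ndrg1. Those of Egln1, Egln3, Bnip3 and Ankrd37 lost their calls when single libraries were left out, and Egln3 was at -0.21 and Ankrd37 at 0.25 without coculture EpCAM+ replicate 1. Groups of 2 libraries are too small for a check of single outlying libraries.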

How the results depend on the processing

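The direction of called differences held under every alternative run, except that Pfkl between the fractions of coculture reversed to -0.0743 under median-of-ratios scaling and Ldha reversed to 0.0553 under quantile normalization. Of differences not called as deposited, Hk1 between the fractions of monoculture came to -0.20 under median-of-ratios scaling and Pkm between the cultures in EpCAM+ to -0.0662 under quantile normalization. In each the cause was not tested beyond the scaling itself. In coculture, the members at 2-fold higher in EpCAM+ numbered 3 in place of 5 with a filter of 5 FPKM, which tests fewer genes. In EpCAM+, those at 2-fold lower in monoculture numbered 3 in place of 1 with a pseudocount of 0.1. With single libraries left out, the lower calls in EpCAM+ between the cultures ran from 5 to 9, the 2-fold lower ones from 1 to 2, and the positive interaction calls from 15 to 17, where the fit on all libraries gave 18. Same-numbered libraries did not deviate together (correlations from -0.0726 to 0.0406). With 2 libraries a group and small gaps between them, this cannot exclude that same-numbered libraries share a culture or sort. With the replicate block the positive interaction calls were 16 in place of 18 and the lower calls in EpCAM- between the cultures 16 in place of 17, and the other counts of members did not move. Depth in reads is unknown, so differences of genes near or under 1 FPKM, such as Aldoc, Car9, Egln3 and Ankrd37, are the least precise.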
